A study of Mus musculus with 2 samples.

Results

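Cd34-positive leukemia cells are described here: the cells with at least 1 Cd34 UMI (unique molecular identifier, the tag that marks 1 captured RNA molecule) among GFP+Lin-c-Kit+ splenocytes of mice with AE9a leukemia. A barcode was taken as a cell when it held at least 500 detected genes, at most 10% mitochondrial UMIs and at least 3000 UMIs. By this rule 310 of 6428 cells of the Usp18+/f-labelled library and 812 of 7053 cells of the Usp18+/Δ-labelled library were members, 1122 of 13481 cells in all. The rule used Cd34 UMIs only, so Cd34 levels and shares are given as a description, and every other gene was measured in the same cells without having chosen them.

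AE9a is a C-terminally truncated form of the AML1-ETO fusion, carried by a retrovirus that also marks the cells with GFP, and it drives an acute myeloid leukemia in C57BL/6 mice. Both groups started from Usp18+/f leukemia with a Cre recombinase that becomes active with tamoxifen. Recipient mice that had become sick received oil, which left the leukemia Usp18+/f, or tamoxifen, which was meant to give Usp18+/Δ, and spleens were taken on day 3 from the first dose. Each group was 1 library made from the sorted cells of 3 mice, with 8000 cells targeted, so that mice could not be told apart. With 1 library for each group no test was possible, no p-value is given, and a tamoxifen effect cannot be told apart from a difference between libraries.

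CD34 is a sialomucin, a heavily glycosylated membrane protein, found on hematopoietic stem and progenitor cells, on vascular endothelium and on mouse mast cells and their precursors. Podxl and Spn encode other sialomucins of blood cells. In the marrow Cd34 is lost as progenitors mature along the red cell and granulocyte lines, and in acute myeloid leukemia it is widely used to gate immature blasts. A 3′ count library captures a small part of each cell's RNA, so a cell with 0 Cd34 UMIs is not shown to lack the transcript.

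Usp18, the targeted gene, did not go down with its label. It encodes a protease that removes ISG15 from proteins and restrains type I interferon signalling, and it lies at chr6:121245906-121270917 of mm10 (ENSMUSG00000030107). Over all cells it had 349 UMIs (5.64 CPM, the UMIs of a gene for each 1000000 UMIs of its pool) in the Usp18+/f-labelled library and 1503 UMIs (23.8 CPM) in the Usp18+/Δ-labelled library. In Cd34-positive cells it had 21 UMIs (6.44 CPM) and 152 UMIs (20.6 CPM), a log2 ratio of 1.68 (95% interval 1.01 to 2.41). Usp18 is itself interferon-stimulated and on the interferon list, which was higher in the same library, and the part of this in its level was not tested. The 3′ tags do not show whether an allele had been recombined, and every direction between libraries below is given by label only.

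The deposited libraries held 63690481 UMIs over 7281 barcodes and 65146263 UMIs over 7833 barcodes, and the median cell past the limits had 8980.5 and 8365 UMIs. Kit, the receptor used in the sort, had a UMI in 55.2% and 52.5% of all cells. Of markers of neighbouring lineages, Mpo, Elane and Cebpa had 0 UMIs in Cd34-positive and matched Cd34-zero cells of both libraries, and Ptprc, which encodes the leukocyte antigen CD45, had 0 UMIs in Cd34-positive cells and 1 and 6 UMIs in Cd34-zero cells. The abundant lineage transcripts in both pools were those of mast cells and basophils (Ms4a2, Il1rl1, Cma1) and of red cell precursors (Car1, Hbb-bs). Among all barcodes 15 were found in both libraries, and 1 Cd34-positive cell, of the Usp18+/Δ-labelled library, had such a barcode.

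Promoters of the gene that defined the cells and of 6 mast cell, globin and other genes that the results return to are shown first. They were picked with values and matches known and do not represent the called genes. Each is the run of 250 bases before the RefSeq start in GRCm38, read 5′ to 3′ on the gene's strand, with AGATAA or TGATAA (letters bound by GATA factors) in capitals where either was found. The Cd34 promoter at chr1:194938571-194938820 (+) held neither. The promoter of Cpa3, mast cell carboxypeptidase, at chr3:20242182-20242431 (-) held 1 match, 46 bases before the start. That of Cma1, a mast cell chymase, at chr14:55944676-55944925 (-) held none. The Smpx promoter at chrX:157698723-157698972 (+) held 2 matches, 137 and 27 bases before the start. The promoter of Hbb-bs, an adult beta globin, at chr7:103827929-103828178 (-) held 1, at 210 bases. Those of Vim, at chr2:13574061-13574310 (+), and of Hbb-bt, a further beta globin, at chr7:103813924-103814173 (-), held none.
Cd34: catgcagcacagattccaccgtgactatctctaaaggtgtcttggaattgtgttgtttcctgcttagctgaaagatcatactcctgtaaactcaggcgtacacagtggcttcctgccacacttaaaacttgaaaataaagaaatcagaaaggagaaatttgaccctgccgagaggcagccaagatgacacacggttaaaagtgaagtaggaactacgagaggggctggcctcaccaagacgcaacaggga
Cpa3: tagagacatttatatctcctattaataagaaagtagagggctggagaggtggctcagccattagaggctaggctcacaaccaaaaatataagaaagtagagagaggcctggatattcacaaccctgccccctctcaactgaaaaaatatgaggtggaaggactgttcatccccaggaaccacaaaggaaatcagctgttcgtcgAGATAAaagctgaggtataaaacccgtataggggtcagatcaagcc
Cma1: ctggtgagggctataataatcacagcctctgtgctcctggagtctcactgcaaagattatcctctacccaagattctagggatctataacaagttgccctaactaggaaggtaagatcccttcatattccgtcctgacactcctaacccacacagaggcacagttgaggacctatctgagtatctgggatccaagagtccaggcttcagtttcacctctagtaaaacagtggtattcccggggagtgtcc
Smpx: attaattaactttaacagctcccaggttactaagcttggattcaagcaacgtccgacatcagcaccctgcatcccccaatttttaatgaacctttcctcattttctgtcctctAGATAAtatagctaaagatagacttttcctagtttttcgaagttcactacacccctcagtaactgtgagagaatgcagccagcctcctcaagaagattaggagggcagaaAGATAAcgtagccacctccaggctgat
Hbb-bs: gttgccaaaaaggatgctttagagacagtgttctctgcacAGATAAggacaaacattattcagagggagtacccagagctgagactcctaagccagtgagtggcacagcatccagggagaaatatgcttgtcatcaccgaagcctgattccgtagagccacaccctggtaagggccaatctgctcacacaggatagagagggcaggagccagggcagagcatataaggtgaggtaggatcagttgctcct
Vim: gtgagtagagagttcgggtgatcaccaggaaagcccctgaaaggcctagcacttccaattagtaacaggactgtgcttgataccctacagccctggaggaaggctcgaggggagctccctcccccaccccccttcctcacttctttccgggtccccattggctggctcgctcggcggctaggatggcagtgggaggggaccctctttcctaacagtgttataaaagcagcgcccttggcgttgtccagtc
Hbb-bt: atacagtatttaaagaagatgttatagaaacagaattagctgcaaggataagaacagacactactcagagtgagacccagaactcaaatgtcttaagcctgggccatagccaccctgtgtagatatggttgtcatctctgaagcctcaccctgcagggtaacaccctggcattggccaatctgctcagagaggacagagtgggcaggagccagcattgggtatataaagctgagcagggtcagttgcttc
Searched on both strands, AGATAA or TGATAA was found in 16.6% of 32851 RefSeq promoter windows of this length. Such a match describes letters and is not a measured binding site.

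The share of Cd34-positive cells was 4.82% (95% Clopper-Pearson interval 4.31 to 5.38) in the Usp18+/f-labelled library and 11.5% (10.8 to 12.3) in the Usp18+/Δ-labelled library, a log2 ratio of 1.26 (1.07 to 1.44). With a mitochondrial limit of 5%, which left 18 and 71 members, the log2 ratio was 2.22. All intervals here cover counting error only, and not the spread between mice. Cd34 (ENSMUSG00000016494, chr1:194938819-194961279 of mm10) summed over all cells was 5.98 CPM (exact Poisson 5.38 to 6.62) and 15.9 CPM (14.9 to 16.9). The sum is made of the same UMIs that chose the members and restates the share.

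The gap was as large at equal depth. After each cell was thinned to 3000 UMIs, a step that left out no cell past the limits, 123 cells (1.91%) and 329 cells (4.66%) kept a Cd34 UMI, a log2 ratio of 1.29 (0.99 to 1.58). By range of total UMIs (from 3000, 5000, 8000 and 12000 UMIs up) the shares were 2.93%, 4.85%, 4.24% and 6.51% in the Usp18+/f-labelled library, and 14.7%, 10.4%, 11.2% and 12.5% in the Usp18+/Δ-labelled library. The shallowest cells thus had the lowest share of the 4 ranges in the former and the highest in the latter. Below the limit of 3000 UMIs, barcodes from 2500 UMIs up had Cd34 in 6 of 120 and 20 of 138 (14.5%), and just above it, from 3000 to under 3500 UMIs, in 5 of 126 (3.97%) and 22 of 138 (15.9%).

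**Figure D1:**
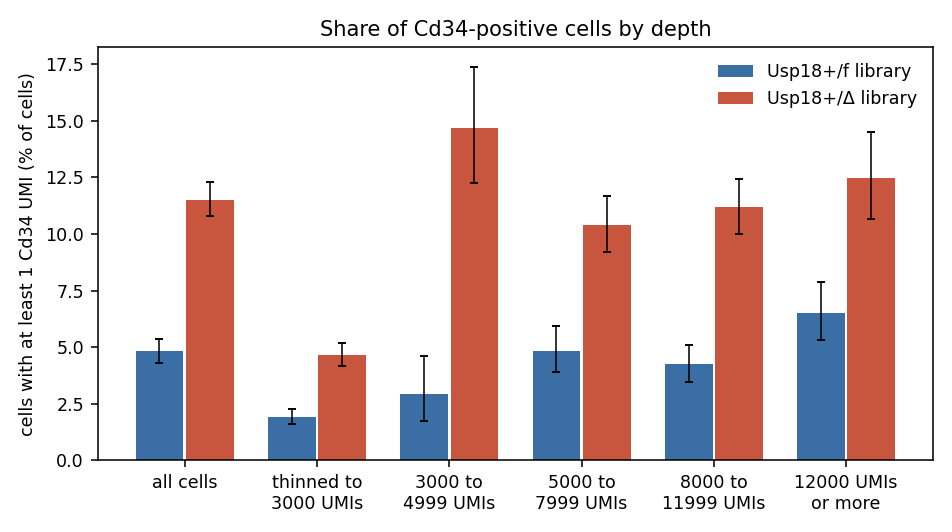
Share of cells with at least 1 Cd34 UMI (percent, y axis) in each library. Shares are given for all cells, for cells thinned to 3000 UMIs and by range of total UMIs. Bars are shares and the thin lines on them are 95% Clopper-Pearson intervals, which cover counting error only. The library labelled Usp18+/Δ sits above the Usp18+/f-labelled library throughout, 11.5% against 4.82% over all cells.

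Most members were chosen by 1 molecule. Of the Cd34-positive cells of the Usp18+/f-labelled library, 258 had 1 Cd34 UMI, 44 had 2 and 8 had 3. In the Usp18+/Δ-labelled library 659 had 1, 121 had 2, 27 had 3, 4 had 4 and 1 had 5 or more. The cells with at least 2 Cd34 UMIs made up 0.809% and 2.17% of their libraries, a log2 ratio of 1.42 (0.97 to 1.87).

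Free RNA can place a UMI in a cell that does not express the gene, and no cell type that lacks Cd34 was found in numbers that would measure this. Cells with at least 3 UMIs of the macrophage complement genes C1qa, C1qb and C1qc had Cd34 in 0 of 6 cells (upper limit 45.9%) and 1 of 25 cells (interval 0.101 to 20.4%), with median depths of 11112.5 and 9021 UMIs. A cluster led by the neutrophil granule genes Lcn2, Ngp and S100a8 had Cd34 in 0 of 7 (upper limit 41.0%) and 4 of 54 cells (7.41%, 2.06 to 17.9), but it also held the mast cell and basophil list at 4922 and 4491 CPM, against 3731 and 3654 CPM in the histone gene cluster. It therefore gives no background level.

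Each Cd34-positive cell was set against 3 Cd34-zero cells of its library with the nearest total UMIs. Median depths were 9792.5 against 9792 UMIs in the Usp18+/f-labelled library and 8527 against 8524 UMIs in the Usp18+/Δ-labelled library. Median mitochondrial shares were 6.50% against 6.29% and 6.45% against 6.44%. UMIs were summed over each of the 4 pools, and the 6013 genes averaging 20 CPM or more over the pools were compared. Most genes hardly moved: the log2 ratio lay within 0.25 of 0 for 84.9% and 92.1% of them. A gene was called when it differed by at least 1.5-fold in the same direction in both libraries, which 17 genes did upward (0.283% of those compared) and 4 downward (0.0665%). Within a single library the same fold was passed upward by 0.698% and 0.349% of genes and downward by 0.233% and 0.0832%. The numbers called depended on the processing. They were 150 higher and 83 lower with a mitochondrial limit of 5%, which left 18 and 71 members, and 11 were higher with cluster matching.

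Genes of mast cells and basophils, which store granule proteases and bear the high-affinity IgE receptor, were higher in Cd34-positive cells. Cma1 was at 620 CPM against 364 CPM in the Usp18+/f-labelled library and at 808 CPM against 455 CPM in the Usp18+/Δ-labelled library (log2 0.77, interval 0.69 to 0.85, and 0.83, interval 0.78 to 0.87). Fcer1a, the alpha chain of the IgE receptor, was at 281 against 154 CPM and at 383 against 230 CPM (log2 0.87 and 0.74). Cyp11a1, the side-chain cleavage enzyme that starts steroid synthesis and is expressed in mast cells, was at 264 against 120 CPM and at 485 against 305 CPM (log2 1.13 and 0.67). For all of these the Cd34-positive pool was the higher one in each library, and only Cyp11a1 in Cd34-zero cells of the Usp18+/Δ-labelled library exceeded the Cd34-positive pool of the other library.

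Slc18a2, the vesicular monoamine transporter that loads histamine into granules, was at 38.3 against 18.2 CPM and at 54.3 against 32.0 CPM (log2 1.07 and 0.76). Cpa3 was at 124 against 83.9 CPM and at 275 against 164 CPM (log2 0.56 and 0.75), which is just short of the fold in the first library. Hdc, the histamine-forming decarboxylase, Ms4a2, the beta chain of the IgE receptor, Srgn, the granule proteoglycan, and Il1rl1, the IL-33 receptor, were higher by smaller steps (log2 0.25 and 0.19, 0.18 and 0.15, 0.26 and 0.20, and 0.09 and 0.14). Of the 22 genes of the list 13 had at least 20 CPM, of which 4 were called higher and none lower, and 11 were higher in both libraries, where 31.3% of all genes were. The summed list was higher by log2 0.36 (0.34 to 0.39) and 0.34 (0.32 to 0.35), and the median of its genes was 0.56 and 0.20, against all-gene medians of 0.00 and -0.01. The exceptions were the protease genes Mcpt1 (0.43 and -0.05) and Mcpt2 (0.66 and -0.11). For each of them a single cell held over 20% of the UMIs of a pool.

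**Figure D2:**
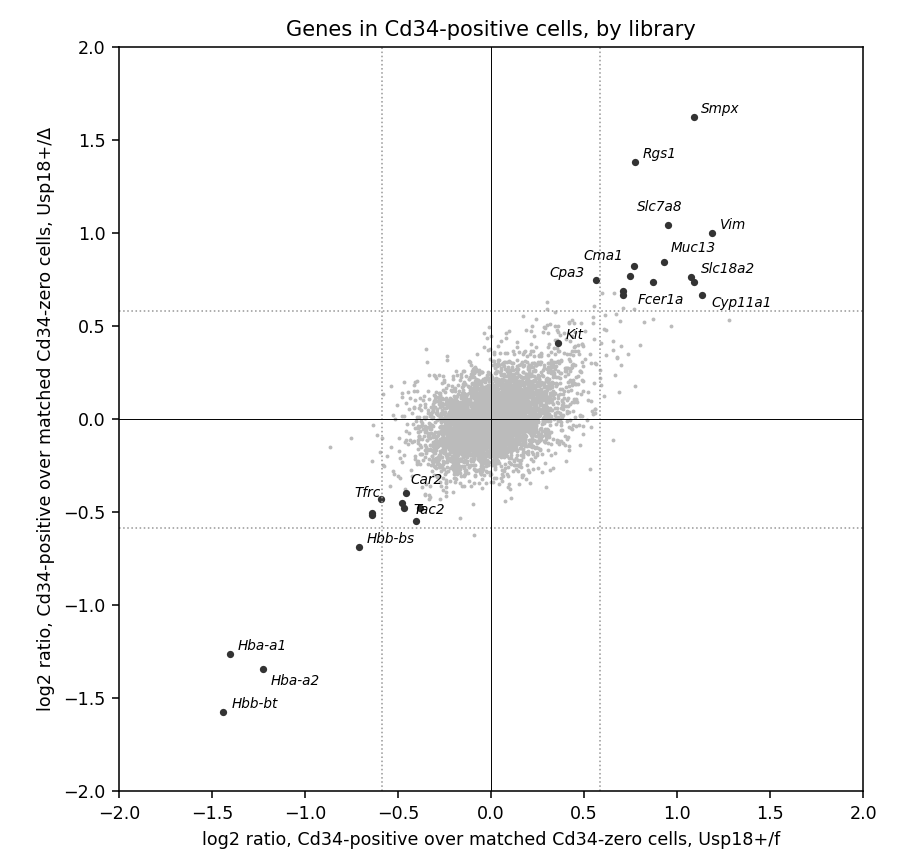
Log2 ratio of Cd34-positive over matched Cd34-zero cells for each gene averaging 20 CPM or more. The x axis is the Usp18+/f-labelled library and the y axis the Usp18+/Δ-labelled library. Dotted lines mark 1.5-fold. Dark points are the largest rises and falls named by rank, with Cyp11a1, Cpa3 and Kit added. Not every dark point is a called gene (Car2, Tfrc, Cpa3 and Kit were not called). The called genes Sdsl, Lmo4, Tespa1 and Cmtm7 are not marked. Vim, Cma1, Fcer1a and Cyp11a1 stand out to the upper right and 4 globin genes to the lower left.

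After Smpx, the largest called rise by the smaller of both libraries' ratios was that of Vim (vimentin, an intermediate filament protein of mesenchymal and immature blood cells; chr2:13573927-13582826). It was at 258 CPM in Cd34-positive and 113 CPM in Cd34-zero cells of the Usp18+/f-labelled library, and at 308 and 154 CPM in the Usp18+/Δ-labelled library (log2 1.19, interval 1.06 to 1.32, and 1.001, interval 0.92 to 1.08). Both Cd34-positive pools were above both Cd34-zero pools. Smpx, a small muscle protein gene of low level, rose from 14.4 to 30.7 CPM and from 9.14 to 28.2 CPM (log2 1.09 and 1.63). Slc7a8, an amino acid transporter, was at 60.4 against 31.3 CPM and 116 against 56.1 CPM (log2 0.95 and 1.05), and Muc13, an epithelial-type mucin also found on progenitors, at 42.3 against 22.2 CPM and 43.9 against 24.4 CPM.

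The other called rises were smaller or of lower level. Rgs1, a regulator of G protein signalling, differed more in the Usp18+/Δ-labelled library (70.1 against 26.8 CPM, log2 1.38) than in the Usp18+/f-labelled library (23.6 against 13.8 CPM, 0.77), with up to 13.9% of a pool's UMIs in 1 cell. Ifi204, an interferon-inducible DNA sensor of a gene family with close copies, gave 0.75 and 0.77. Akr1c13, Rin3, Rnase6, Sdsl, Lmo4, Tespa1 and Cmtm7 lay between 0.59 and 1.09 in both libraries. Sdsl, Lmo4, Tespa1 and Cmtm7 were outside the naming rule and were named, as called genes, after their values were seen. The alternatives gave no separate values for the called genes Cyp11a1, Sdsl, Lmo4, Tespa1 and Cmtm7. The 1.5-fold limit was kept in every alternative run for Vim, Smpx and Slc7a8. In the Usp18+/Δ-labelled library it was missed in at least 1 alternative by Rin3 (0.29), Rnase6 (0.52) and Ifi204 (-0.48 with a mitochondrial limit of 5%). It was missed in the Usp18+/f-labelled library in at least 1 alternative by Cma1 (0.44 with cluster matching), Fcer1a (0.53 with a mitochondrial limit of 5%), Slc18a2 (0.56 with the next nearest cells), Muc13 (0.41), Rgs1 (0.45), Rin3 (0.44), Rnase6 (0.57), Ifi204 (0.53) and Akr1c13 (-0.0030). A RefSeq promoter was found for 13 of the 17 genes, and 4 of these held AGATAA or TGATAA (Rnase6, Fcer1a, Slc18a2 and Smpx), against 18.8% of all genes with an entry.

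Globin transcripts were lower in Cd34-positive cells. Hbb-bt (chr7:103812524-103813996), an adult beta globin, was at 220 against 597 CPM in the Usp18+/f-labelled library and at 273 against 812 CPM in the Usp18+/Δ-labelled library (log2 -1.44, interval -1.55 to -1.33, and -1.57, interval -1.64 to -1.51). Hba-a1 gave -1.40 and -1.26, Hba-a2 -1.23 and -1.34, and Hbb-bs, the most abundant at 1153 against 1886 CPM and 1286 against 2066 CPM, gave -0.71 and -0.68. In each of these 4 genes both Cd34-positive pools lay below both Cd34-zero pools. With a mitochondrial limit of 5% Hbb-bs was no longer lower in the Usp18+/f-labelled library (0.0123). Hba-a1 with Hba-a2 and Hbb-bt with Hbb-bs are near-identical copies, so the split of reads within a pair is uncertain. All 4 had a promoter entry and 3 (Hba-a1, Hba-a2 and Hbb-bs) held AGATAA or TGATAA, against 18.8% of all genes, with the Hba copies not separate cases.

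Beyond the globins most red cell genes above 20 CPM differed less. Tfrc, the transferrin receptor, was at 60.7 against 84.8 CPM and 57.0 against 77.8 CPM (log2 -0.48 and -0.45), and Car2, a carbonic anhydrase, gave -0.46 and -0.40. Gata1, the erythroid and mast cell transcription factor, was level at 134 against 136 CPM and 133 against 135 CPM, and Klf1, an erythroid factor, gave -0.01 and -0.14. Of 17 erythroid genes compared 12 were lower in both libraries, as were 32.1% of all genes, 4 were called lower, and Nfe2 and Zfpm1 were higher in both. The summed list gave -0.35 and -0.43, and without the 4 globin genes, a choice made after seeing the data, -0.05 (-0.08 to -0.03) and -0.13 (-0.14 to -0.11). Alas2, the erythroid heme synthesis enzyme, lay below 20 CPM and was named after its values were seen. It had 9 against 66 UMIs and 30 against 223 UMIs (log2 -1.29, interval -2.48 to -0.28, and -1.31, interval -1.91 to -0.76). Slc4a1, the red cell anion exchanger, also below 20 CPM and named likewise, had 0 against 10 UMIs and 2 against 58 UMIs. Further falls by the same ranking were St3gal6 (a sialyltransferase, -0.64 and -0.51), Tac2 (a tachykinin precursor, -0.47 and -0.48) and Ift140, Atf5, Tspan33 and Hoxc5, none of which reached 1.5-fold in both libraries.

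Stem and progenitor genes other than Cd34 itself moved in both directions, and none was called. Kit, the stem cell factor receptor, was at 124 against 96.5 CPM and at 126 against 94.8 CPM (log2 0.36 and 0.41). Fli1, an ETS factor of progenitors and megakaryocytes, gave 0.49 and 0.29, Cd48, a SLAM family surface protein, 0.96 and 0.50, and Ikzf2, an Ikaros family factor, 0.26 and 0.35. Runx1, which encodes the amino-terminal partner of the fusion, gave 0.17 and 0.13, and Lmo2, a hematopoietic adaptor of transcription factors, gave -0.26 and -0.31. Of 28 genes 11 were compared, 7 were higher in both libraries and 3 lower in both (Lmo2, Hlf and Tal1), where 31.3% and 32.1% of all genes were, and the summed list gave 0.15 and 0.12. Flt3, Hoxa9, Sox4, Mycn and Prom1 had 0 UMIs in all 4 pools. The other sialomucins gave no common direction, with Podxl at -0.17 and 0.01, Spn at 0.22 and 0.05 and Cd164 at 0.30 and 0.03.

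Mitotic genes summed lower in Cd34-positive cells, by an amount that depended on the processing, and S phase genes did not. Of 30 G2 and mitotic genes 27 were lower in both libraries, where 32.1% of all genes were, none by 1.5-fold in both, and the list summed to -0.25 (-0.28 to -0.22) and -0.17. The value nearest 0 over the alternatives was -0.0187 in the Usp18+/f-labelled library (mitochondrial limit of 5%) and -0.0665 in the Usp18+/Δ-labelled library (matching on cluster). Cenpe, a centromere motor, gave -0.58 and -0.25, and the cyclins Ccna2 and Ccnb1 gave -0.53 and -0.28 and -0.27 and -0.36. Of 26 S phase genes 6 were higher and 7 lower in both libraries, fewer than the 31.3% and 32.1% of all genes, and the list summed to 0.03 and -0.00. In cells thinned to 3000 UMIs the median number of G2 and mitotic UMIs was 4 in Cd34-positive against 8 in Cd34-zero cells of the Usp18+/f-labelled library, and 4 against 6 in the other library.

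**Figure D3:**
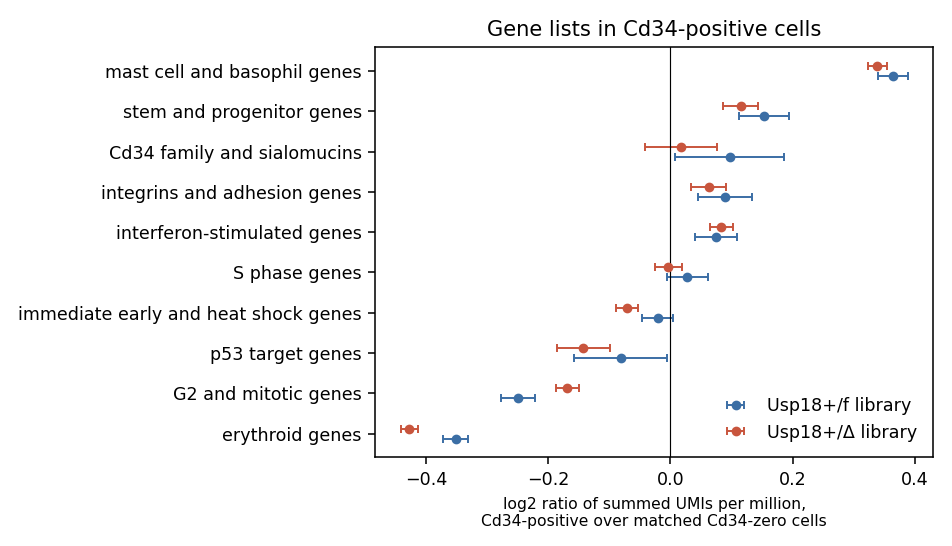
Log2 ratio of the summed UMIs (x axis), Cd34-positive over matched Cd34-zero cells, for each gene list with at least 5 compared genes. Bars are 95% exact conditional intervals for both libraries, which cover counting error only. The mast cell and basophil list lies to the right of 0 at 0.36 and 0.34. The erythroid and G2 and mitotic lists lie to the left.

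Markers of other cells the gate could hold were mostly low, with exceptions. The macrophage list summed to 6.13 against 8.39 CPM and 11.4 against 19.1 CPM, and the endothelial markers Cdh5, Tek, Emcn, Cldn5 and Flt1 had 0 UMIs in all 4 pools. The endothelial list nevertheless summed to 189 against 185 CPM and 171 against 174 CPM, mostly from Egfl7 (162 against 160 CPM and 141 against 146 CPM), which encodes a secreted EGF-like protein. The stromal proteoglycan gene Dcn was at 73.0 against 80.4 CPM and 57.3 against 64.8 CPM. The lymphoid list differed by 0.44 and 1.24, but 252 of its 261 UMIs in Cd34-positive cells of the Usp18+/Δ-labelled library were Nkg7 (a granule membrane protein, named after its values were seen), and 11 of its 16 genes had none. Nkg7 was found in 9.85% of thinned Cd34-positive against 4.27% of Cd34-zero cells of that library, and in 1.94% against 1.40% in the Usp18+/f-labelled library.

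Granulocyte-monocyte genes gave opposite directions, log2 0.34 (0.15 to 0.53) in the Usp18+/f-labelled library and -0.47 (-0.58 to -0.36) in the Usp18+/Δ-labelled library. In the latter 1 Cd34-zero cell held 1336 of the 3616 list UMIs of its pool, and without it the ratio was 0.20 (0.08 to 0.31). The megakaryocyte list gave 0.11 and 0.22, the integrin and adhesion list 0.09 and 0.06 and the immediate early and heat shock list -0.02 and -0.07. The stromal list gave -0.12 and -0.17, but 0.48 in the Usp18+/Δ-labelled library with a mitochondrial limit of 5%. From low UMI sums, the macrophage list gave -0.45 (-1.24 to 0.27) and -0.75 (-1.10 to -0.41). The eosinophil list, also of low sums, gave 0.58 (-0.97 to 1.99) and 0.24 (-0.48 to 0.91). Spi1, the myeloid factor PU.1, gave 0.38 and 0.02, and Fcgr3, an IgG receptor below 20 CPM that was named after its values were seen, gave 1.11 and 0.94.

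High doublet scores, the 5% highest of each library, marked 6.13% of Cd34-positive against 7.85% of matched Cd34-zero cells in the Usp18+/f-labelled library, and 8.62% (6.78 to 10.8) against 3.78% (3.06 to 4.61) in the Usp18+/Δ-labelled library. With these cells removed 17 genes were again called higher and 4 lower, Vim gave 1.22 and 0.999 and Hbb-bt -1.36 and -1.64, and the share ratio was 1.21.

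Counted cell by cell, Vim and Cyp11a1 differed beyond counting error and the globins less so. In cells thinned to 3000 UMIs, Vim had a UMI in 41.9% of Cd34-positive against 22.4% of Cd34-zero cells of the Usp18+/f-labelled library and in 51.6% against 31.4% in the Usp18+/Δ-labelled library (unthinned, 71.9% against 42.8% and 77.5% against 50.5%). Cyp11a1 was found in 45.5% against 22.6% and in 68.6% against 48.8% of thinned cells (67.1% against 38.6% and 87.9% against 69.8% unthinned). Hbb-bt went the other way, in 26.1% against 36.02% and in 23.4% against 32.6% (42.9% against 55.9% and 42.7% against 49.9% unthinned). Hbb-bs, the most abundant globin, was found in 49.7% against 51.8% of thinned cells (log2 ratio of shares -0.06, interval -0.25 to 0.12) and in 46.1% against 49.5% (-0.10, -0.23 to 0.02), and unthinned in 67.7% against 69.8% and in 61.8% against 66.2% (-0.10, -0.19 to -0.01). Thinned erythroid list UMIs had medians of 19 against 21 and 17 against 20 and means of 22.0 against 29.4 and 21.6 against 32.0. The highest cells held 231 against 787 and 403 against 1041 list UMIs, so the means stood further apart than the medians.

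Taking Vim, Cma1, Fcer1a, Cyp11a1 and Cpa3 together, thinned Cd34-positive cells held on average 2.01 of these 5 genes against 1.25 in Cd34-zero cells in the Usp18+/f-labelled library, and 2.55 against 1.78 in the Usp18+/Δ-labelled library. None of the 5 was found in 14.8% against 33.5% and in 9.98% against 23.4% of cells. All 5 were found in 4.84% against 1.29% and in 12.8% against 5.95%. These genes were picked for being high in Cd34-positive cells, and their spread over cells was not set against that of a uniform population.

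Ordered by the thinned UMIs of the mast cell and basophil list and cut into 5 groups of equal size, cells carried a thinned Cd34 UMI in 0.700% of the lowest and 3.74% of the highest group in the Usp18+/f-labelled library, and in 2.20% and 9.72% in the Usp18+/Δ-labelled library. The share rose at each step in both libraries. By the erythroid list it went from 2.41% to 1.32% and from 7.30% to 3.26%, and by the G2 and mitotic list from 3.58% to 1.48% and from 7.51% to 2.77%. Neighbouring groups share boundary values, since whole UMI numbers tie.

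**Figure D4:**
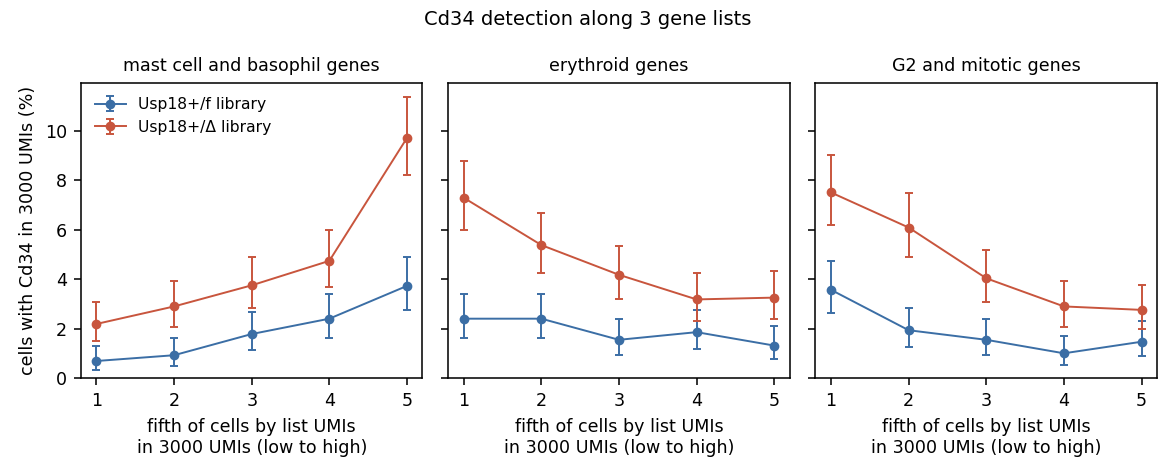
Share of cells with a Cd34 UMI after thinning to 3000 UMIs (percent, y axis) in 5 equal groups of cells ordered by list UMIs (x axis), for the mast cell and basophil, erythroid, and G2 and mitotic lists in both libraries, with 95% Clopper-Pearson intervals. The share rises with mast cell and basophil UMIs, to 3.74% and 9.72%, and is lower at the high end of the other lists.

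Cd34-positive cells were spread over the clusters rather than gathered in 1. Clusters were made without Cd34 and without the interferon list, and they are called by their leading genes. The Cd34 share of the 5 large clusters in the Usp18+/f-labelled library was 6.99% in the cluster led by Ung, Cdca7 and Cdc6, 4.84% in that led by Cenpf and Plk1, 4.04% in that led by histone genes, 3.88% in that led by Trp53inp1, Tcp11l2 and Cpa3, and 2.54% in that led by Tspoap1 and Dnajb9. In the Usp18+/Δ-labelled library the same clusters had 12.8%, 10.7%, 12.02%, 13.99% and 6.07%. The cluster of Trp53inp1, Tcp11l2 and Cpa3 held 11.3% of the Cd34-positive cells of the first library and 28.0% of those of the second, against 14.03% and 23.0% of all their cells. These shares are not thinned, and the median depth of the 5 clusters, in the order given, was 8117, 12907, 10533, 6130.5 and 7799 UMIs in the Usp18+/f-labelled library and 7676.5, 11771.5, 9930.5, 5653 and 7689 UMIs in the other. Summed Cd34 was at 10.00, 4.42, 4.51, 7.64 and 3.35 CPM, and at 18.4, 10.5, 14.6, 30.2 and 9.04 CPM. The ranking of the clusters by CPM differed from that by share in the Usp18+/f-labelled library and was the same in the other.

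Within these 5 clusters and both libraries, 10 comparisons in all, Vim was higher in Cd34-positive cells in 10 (log2 0.57 to 1.41), as were Fcer1a (0.46 to 1.38), Cyp11a1 (0.49 to 1.49) and Slc7a8 (0.72 to 2.17). Cma1, Cpa3 and Kit were higher in 9 each. Hbb-bt was lower in 10 (-3.86 to -0.47), as were Hbb-bs and Car2. The mast cell and basophil list was higher in 10 (0.15 to 0.37) and the G2 and mitotic list lower in 8. When Cd34-zero cells were matched on cluster as well as depth, 11 genes were called higher.

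**Figure D5:**
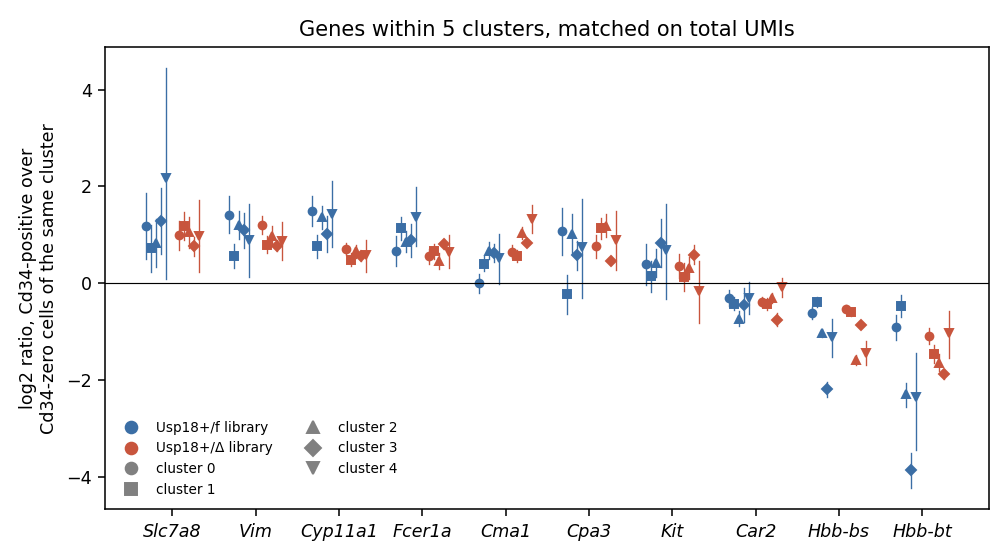
Log2 ratio of Cd34-positive over depth-matched Cd34-zero cells (y axis) for selected genes (x axis) within the 5 large clusters. There is 1 point for each cluster and library. All 10 points of Vim, Fcer1a, Cyp11a1 and Slc7a8 lie above 0 and all 10 of Hbb-bt lie below it.

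Cells with at least 2 Cd34 UMIs, 52 and 153 cells, stood further apart for most of the genes followed. Vim gave 1.13 in cells with 1 Cd34 UMI and 1.37 in cells with 2 or more in the Usp18+/f-labelled library, and 0.84 and 1.47 in the Usp18+/Δ-labelled library. Slc7a8 went from 0.76 to 1.504 and from 0.83 to 1.54, and Fcer1a from 0.61 to 2.14 and from 0.61 to 0.97. Cma1 went from 0.83 to 0.60 in the first library and from 0.71 to 1.17 in the second, and the mast cell and basophil list from 0.38 to 0.33 and from 0.27 to 0.55, so the step did not point one way in both. The intervals of these cells are wider, for example 1.07 to 1.68 for Vim and 1.85 to 2.43 for Fcer1a in the Usp18+/f-labelled library.

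Between libraries the Cd34-positive cells of the Usp18+/Δ-labelled library were at least 1.5-fold above those of the Usp18+/f-labelled library for 0.832% of the 6013 genes and below for 0.216%. Without a fold limit 48.1% of genes were higher, and 50.6% in Cd34-zero cells. Interferon-stimulated genes were 16 of the 50 genes that passed the fold upward, all 26 of the list that were compared were higher, and the list summed to log2 0.48 (0.44 to 0.51), against 0.47 in Cd34-zero cells. With a mitochondrial limit of 5%, which left 18 and 71 members, the list summed to 0.83 in Cd34-positive cells. Isg15, the ubiquitin-like modifier, went from 12.6 to 93.6 CPM (2.90, interval 2.44 to 3.39, against 2.54 in Cd34-zero cells). Oas3, an RNA sensor, gave 1.66, Rnf213 1.41 and Ifi27l2a 1.40.

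Cdkn1a, the p21 cell cycle inhibitor, gave 1.48 in both Cd34-positive and Cd34-zero cells, and 8 of 8 p53 target genes compared were higher. Hspa1a and Hspa1b, near-identical heat shock genes summed for this reason, were lower, at 227 against 40.2 CPM (-2.50, against -2.21 in Cd34-zero cells). Rgs1 gave 1.57 in Cd34-positive and 0.96 in Cd34-zero cells. The mast cell and basophil list summed to 0.11 in Cd34-positive and 0.13 in Cd34-zero cells, with 9 of 13 genes higher in the former (48.1% of all genes were). Its genes went both ways, with Cpa3 at 1.15 (0.97 in Cd34-zero cells) and Cyp11a1 at 0.88 (1.34), and Mcpt1 at -1.40, Mcpt2 at -0.99 and Srgn at -0.13. The other falls chosen by rank were of 0.65 to 0.77 on the log2 scale (Myadm, Wdr73, Fam136a, Noc3l, Faap24 and Gid4).

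Within each library the interferon list hardly separated Cd34-positive from Cd34-zero cells, at 0.07 (0.04 to 0.11) and 0.08. Of 26 genes 11 were higher and 8 lower in both libraries, where 31.3% and 32.1% of all genes were. Psmb8 (0.47 and 0.37), Psmb9 (0.23 and 0.37) and B2m (0.20 and 0.21), genes of antigen presentation, were among the higher ones, whereas Isg15 gave -0.56 and -0.20. A cutoff of 19 list UMIs after thinning was set at the 99th percentile of all cells of the Usp18+/f-labelled library. A low share in that library therefore follows from the cutoff, and cells above it made up 0.323% of both pools there. In the Usp18+/Δ-labelled library they made up 12.1% (9.91 to 14.5) of Cd34-positive against 9.07% (7.96 to 10.3) of Cd34-zero cells. The p53 target list was slightly lower in Cd34-positive cells, at -0.08 and -0.14, with 7 of 8 genes lower in both libraries.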

How the data were processed

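Splenic GFP+Lin-c-Kit+ cells of 3 pooled mice for each group were sequenced as 1 library with 10x 3′ V3 chemistry. The deposited values are raw UMI counts for each gene and barcode, which the authors made with Cell Ranger 3.0.2 (named in the file header) and mm10. No replicate library was analysed here, so no test was run.

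Barcodes with at least 500 genes, at most 10% mitochondrial UMIs and at least 3000 UMIs were kept (6886 and 7406 before the last limit, 6428 and 7053 after it). Each Cd34-positive cell was matched without replacement to 3 Cd34-zero cells of its library by log total UMIs. UMIs were summed for each pool and scaled to CPM (UMIs of a gene for each 1000000 UMIs of its pool), so that each ratio is relative to the pool's total. Ratios carry exact conditional 95% intervals, shares Clopper-Pearson or, for their ratios, score intervals, and sums exact Poisson intervals. The upper limit behind a count of 0 was taken as 3 UMIs (0.920 and 0.406 CPM in the Cd34-positive pools). Pools held 3261354 and 7380324 UMIs (Cd34-positive) and 9776210 and 22107538 UMIs (Cd34-zero), so the Usp18+/Δ-labelled library gives narrower intervals.

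Genes of the lists could be named from a mean of 20 CPM over the 4 pools. Beyond them, the 12 largest rises and 12 largest falls by the smaller of the log2 ratios of both libraries were named, and the 8 largest rises and 8 largest falls between libraries in Cd34-positive cells, each with no cell holding over 20% of a pool's UMIs. Other genes are named where the text says that they were chosen after their values were seen. The members and the gene lists were chosen with earlier results of these data known. Cells were clustered (Leiden, resolution 0.8, 2000 genes, 30 components, 20 neighbours) with scanpy 1.11.5 and leidenalg 0.10.2. Scrublet's automatic threshold marked 0.0436% and 0.0270% of cells, under the 0.5% taken as a working call, so doublets were kept and cells above the 95th percentile were removed in an alternative. The other alternatives were mitochondrial limits, a higher UMI minimum, other matching, at least 2 Cd34 UMIs, other CPM minimums, a 2-fold limit, and other scaling. Python 3.11.15, numpy 2.4.6, scipy 1.17.1, pandas 2.3.3 and matplotlib 3.10.9 were used. On simulated data for the comparison of Cd34-positive with Cd34-zero cells, with 200 of 6013 genes changed and Poisson noise only, the intervals held the true ratio for 95.7% (Usp18+/f) and 95.1% (Usp18+/Δ) of genes, and the call found 100% of 2-fold rises, 98% of 2-fold falls, 22% of 1.5-fold rises and 18% of 1.5-fold falls. Promoters are from RefSeq (GRCm38). Some items are not reported here.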

Additional observations from a re-analysis of the deposited data

Results flagged for a closer look

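Barcodes that the report leaves out also held Cd34, above the level that a count of 0 allows (3 UMIs). Those under 3000 UMIs had 14.9 CPM in the Usp18+/f-labelled library (11 UMIs over 458 barcodes) and 80.5 CPM in the Usp18+/Δ-labelled library (62 UMIs over 353 barcodes), against 5.98 and 15.9 CPM over all cells past the limits. Those with over 10% mitochondrial UMIs had 7.12 CPM (7 UMIs over 290 barcodes) and 24.8 CPM (32 UMIs over 404 barcodes).

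The granulocyte-monocyte list went opposite ways in the libraries, 0.34 in the Usp18+/f-labelled library and -0.47 in the Usp18+/Δ-labelled library (log2, Cd34-positive over Cd34-zero cells), with both counting intervals away from 0. The difference was not tested. A single Cd34-zero cell held 1336 of 3616 list UMIs, and without it the second value was 0.20.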

How the results depend on the processing

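No paired analysis was possible because there is 1 library in each group. With 1 library of 3 pooled mice for each group, intervals cover counting error only, and low UMI sums limit the precision: 6013 genes reached the 20 CPM needed for a call. The cause of the changes below was not tested.

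A mitochondrial limit of 5% left 18 and 71 Cd34-positive cells. It gave 150 genes higher and 83 lower, stem and progenitor lists of 0.23 and 0.24, mast cell and basophil lists of 0.61 and 0.31, an interferon list of 0.16 in the Usp18+/f-labelled library and of 0.83 between libraries, and a share ratio of 2.22. It also turned the stromal list to 0.48 and Ifi204 to -0.48 (Usp18+/Δ-labelled library), and Akr1c13 to -0.0030, Hbb-bs to 0.0123 and Ift140 to 1.22 (Usp18+/f-labelled library).

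The numbers of genes higher and lower were 41 and 19 with at least 2 Cd34 UMIs and 49 and 9 from 5 CPM; 11 were higher with cluster matching, 9 from 50 CPM and 2 at 2-fold. The mast cell and basophil list kept its direction throughout. In the Usp18+/f-labelled library it was 0.34 from 6000 UMIs, 0.33 with 1 Cd34-zero cell for each member, 0.29 with cluster matching and 0.33 with at least 2 Cd34 UMIs. In the Usp18+/Δ-labelled library it was 0.37 from 6000 UMIs, 0.32 without high doublet scores, 0.36 with the next nearest cells, 0.30 with cluster matching, 0.32 with matching on mitochondrial share, 0.55 with at least 2 Cd34 UMIs and 0.31 as a mean of per-cell CPM. The stem and progenitor list was 0.22 with at least 2 Cd34 UMIs (Usp18+/f-labelled library) and 0.0811 with cluster matching (Usp18+/Δ-labelled library). The interferon list of the Usp18+/Δ-labelled library was 0.0590 with 1 Cd34-zero cell for each member, 0.0604 with the next nearest cells and 0.0625 with cluster matching. Between libraries it was 0.44 from 6000 UMIs, 0.51 as a mean of per-cell CPM and 0.43 without clusters 6 and 7 (led by Cmpk2 and by Lcn2), an alternative added after seeing the data.

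The granulocyte-monocyte list of the Usp18+/Δ-labelled library turned positive with no mitochondrial limit (0.19), from 6000 UMIs (0.14), with 1 Cd34-zero cell for each member (0.18), with the next nearest cells (0.16), with cluster matching (0.15), with at least 2 Cd34 UMIs (0.30), and, added after seeing the data, without clusters 6 and 7 (0.19) and without the single cell (0.20). Over all alternatives, 85 of 120 values that answer a comparison stayed within the spread and 35 moved, none with a change of sign. Of the others 705 stayed, 197 moved and 13 changed sign.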
